A study of Mus musculus with 19 samples.

Results

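Thymocytes from mice without MHC class I (MHCI-/-, B2m knocked out) were compared with thymocytes from mice without MHC class II (MHCII-/-, H2-Ab1 knocked out). The members were the cells of the lanes with these genotype labels that carried at most 15% mitochondrial UMIs (unique molecular identifiers, the counted transcripts) and at least 200 detected genes. These were 16745 of the 79569 cells of the series, 8018 from MHCI-/- mice (4402 and 3616) and 8727 from MHCII-/- mice (3492 and 5235).

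The series measured RNA and surface proteins of single mouse thymocytes together by CITE-seq, in which antibodies carry DNA tags that are sequenced beside the transcripts. It spans 19 lanes of wild-type, MHC-deficient and TCR-transgenic mice. Both genotypes compared here were 4 to 8 weeks old, untreated and carried diverse TCRs, with 2 mice each, 1 lane per mouse, in a single experiment. All 4 thymi were sorted for CD5+TCRB+ cells, a gate that enriches cells in positive selection. The MHCI-/- mice were of the strain B6.129P2-B2m tm1Unc/DcrJ, and the strain background of the H2-Ab1-/- mice was not given in the sources used here. Sorted wild-type (B6) mice, 3 with 10279 cells, gave a reference. One of them came from another experiment and stood apart in its antibody levels, and wild-type values were given as levels with no test.

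CD4+CD8+ double-positive (DP) thymocytes survive when their TCR recognizes self peptide on MHC. TCRs that recognize MHC class II direct cells to the CD4+ lineage through THPOK (encoded by Zbtb7b), and TCRs that recognize MHC class I direct cells to the CD8+ lineage through RUNX3. B2m is also the partner chain of CD1d and of other MHC class I-like molecules, which present lipids and other ligands to innate-like T cells such as NKT cells.

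The 4 mice gave 17880140 to 39535917 RNA UMIs, and the median cell held 3239.5 (MHCI-/- replicate 1) to 5433 RNA UMIs (MHCII-/- replicate 2). The 3 chains of CD3, the TCR constant regions and other T cell identity genes summed to 12794 and 13117 CPM (UMIs per 1000000 UMIs of the mouse) in MHCI-/- mice and to 12083 and 12173 in MHCII-/- mice. Of the lists of other cells, the B cell genes summed to 177 and 138 CPM in MHCI-/- and to 241 and 219 in MHCII-/- mice, and the myeloid genes to 128 to 132 in all 4 mice. Of the 3 B cell genes tested, the immunoglobulin gene Ighm and Cd79b were called higher in MHCII-/- mice. The 4 erythroid genes, the B cell genes Ms4a1 and Pax5 and the myeloid genes Csf1r, Itgax, Xcr1 and Siglech were below the low-count filter, and the 2 myeloid and 3 thymic epithelial genes above it did not pass the test.

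The knocked-out genes were examined first. B2m was 48.7 and 48.3 CPM in MHCI-/- mice and 844 and 874 in MHCII-/- mice (log2 fold change of MHCI-/- over MHCII-/- of -4.09 ± 0.08, SE, edgeR quasi-likelihood test, adjusted p = 4.33e-06). Wild-type mice held 744 to 971. H2-Ab1 RNA was 13.0 and 3.65 in MHCI-/- mice and 9.10 and 9.08 in MHCII-/- mice, and the genotypes overlapped (-0.09 ± 0.48, adjusted p = 0.912). The sign of that difference turned on 1 mouse: it was 0.58 without MHCI-/- replicate 2 (adjusted p = 0.0408) and -1.30 without MHCI-/- replicate 1 (adjusted p = 0.007). The structure of the H2-Ab1 allele was not given in the sources used here. A 3′ tag need not lie in its altered part, so H2-Ab1 RNA does not check the label. The antibody to the class II proteins I-A and I-E did: it was 5083 and 4162 antibody CPM (per 1000000 antibody UMIs) in MHCI-/- mice and 226 and 225 in MHCII-/- mice (4.44 ± 0.10, adjusted p = 4.09e-10).

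Cells were gated on CD4 and CD8a antibody counts to ask which coreceptor populations each genotype held. CD4+CD8a- cells were 57.2% and 59.9% of the MHCI-/- mice and 3.5% and 4.0% of the MHCII-/- mice. CD4-CD8a+ cells were 0.9% and 0.5% of the MHCI-/- mice and 23.1% and 22.3% of the MHCII-/- mice. The single-positive populations thus stood far apart in opposite directions, with means of 58.6% ± 1.89 and 3.78% ± 0.383 for CD4+CD8a- and of 0.725% ± 0.253 and 22.7% ± 0.592 for CD4-CD8a+ (SD, n = 2 mice). Most MHCII-/- cells were CD4+CD8a+, at 71.3% and 72.0%, against 41.2% and 38.9% of MHCI-/- cells. Wild-type mice lay between the genotypes for both single-positive populations (36.1% to 45.4% and 8.20% to 16.0%) and spanned 37.0% to 54.5% for CD4+CD8a+. CD4-CD8a- cells were 0.646% ± 0.0557 of MHCI-/- and 1.86% ± 0.300 of MHCII-/- cells. The exact two-sided permutation test gave p = 0.333 for each population, the smallest p that 2 mice against 2 allow. Thresholds set separately in each lane reduced the difference in CD4+CD8a- from 54.8 to 37.9 percentage points and that in CD4-CD8a+ from -22.0 to -7.08, and turned that in CD4-CD8a- from -1.21 to 0.507.

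CD69, induced by TCR signals, and CD127, the IL-7 receptor that rises with maturation, divided the same cells into 4 stages. CD69loCD127lo cells were 20.8% and 18.7% of MHCI-/- and 25.4% and 22.1% of MHCII-/- cells. CD69+CD127+ cells were 36.6% and 36.8% of MHCI-/- and 30.5% and 32.9% of MHCII-/- cells. These 2 stages did not overlap between genotypes, which differed by -4.01 and 4.99 percentage points, whereas CD69+CD127lo (19.6% and 23.5%, 19.1% and 22.6%) and CD69-CD127+ (22.9% and 21.1%, 25.1% and 22.3%) did. With thresholds set separately in each lane the 2 differences were -0.606 and 0.868 percentage points. The exact p was 0.333 where the genotypes were separate and 0.667 where they overlapped.

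The coreceptor populations of the genotypes were compared within each stage. In CD69loCD127lo cells, CD4+CD8a+ made up 68.0% and 65.4% of MHCI-/- and 90.9% and 90.4% of MHCII-/- cells. In CD69+CD127+ cells, CD4+CD8a- made up 74.9% and 75.7% of MHCI-/- cells. Of MHCII-/- cells in this stage, 67.9% and 69.2% were CD4+CD8a+ and 24.8% and 23.7% were CD4-CD8a+. The study describes a later DP phase of cells bound for the CD8+ lineage, which is CD69+CD127+. The CD4+CD8a+ gate does not separate it from earlier DP cells. In CD69-CD127+ cells, CD4-CD8a+ reached 47.3% and 46.7% in MHCII-/- mice and 0.951% and 0.575% in MHCI-/- mice. CD4+CD8a+ cells were 44.2% and 44.4% of MHCII-/- cells there.

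**Figure D1:**
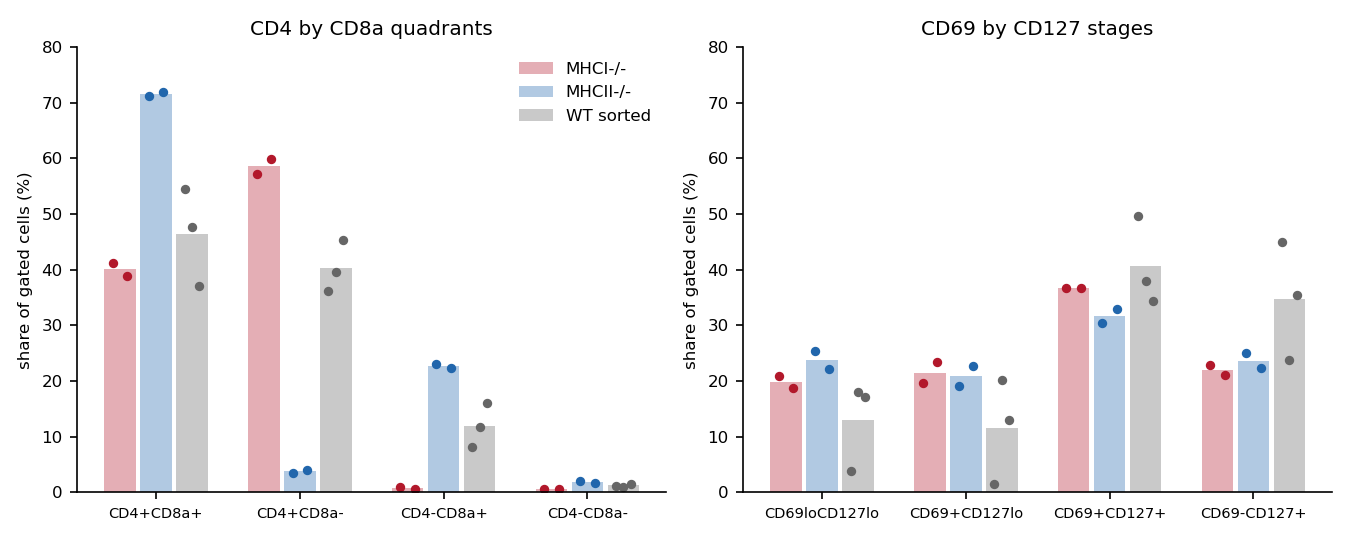
Share of cells in each CD4 by CD8a quadrant (left) and each CD69 by CD127 stage (right) as a percent of gated cells, with bars at the mean and 1 dot per mouse for MHCI-/-, MHCII-/- and sorted wild-type mice. CD4+CD8a- cells averaged 58.6% in MHCI-/- and 3.78% in MHCII-/- mice, whereas the stages differed by a few percentage points.

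RNA was then summed over all cells of each mouse. Of 12141 genes tested, 2012 (16.6%) differed at an adjusted p under 0.05, 1134 (9.34%) higher in MHCI-/- and 878 (7.23%) higher in MHCII-/- mice. Scaling by library size in place of the trimmed mean of M values gave 875 and 1154. The count fell to 1314 without MHCI-/- replicate 2, to 706 without MHCII-/- replicate 1 and to 601 without MHCII-/- replicate 2. Values are given for both MHCI-/- mice against both MHCII-/- mice, replicate 1 before replicate 2, and then as the log2 fold change of MHCI-/- over MHCII-/- with its SE and the edgeR adjusted p. In such sums, fewer cells of a type and less RNA per cell cannot be told apart, and the shares of coreceptor populations given above move with every gene described from them.

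Genes of the CD4 lineage were mostly higher in MHCI-/- mice, 8 of 12, with 1 lower and a median log2 fold change of 0.68 against 0.00 over all genes. Zbtb7b was 35.7 and 49.0 CPM in MHCI-/- mice and 2.16 and 2.66 in MHCII-/- mice (4.16 ± 0.18, adjusted p = 9.22e-05). Cd40lg, the ligand by which helper T cells stimulate CD40 on B cells, was 75.4 and 76.3 against 14.1 and 13.8 (2.49 ± 0.07, adjusted p = 1.6e-05). Il6ra, a chain of the IL-6 receptor, was 32.7 and 39.8 against 8.81 and 8.90 (2.08 ± 0.11). The genotypes were separate for all 3 genes, and wild-type Zbtb7b (25.8 to 31.5) and Cd40lg (42.6 to 50.3) lay between them. The sialyltransferase St8sia6 was 11.3 and 13.4 against 1.57 and 1.85 (2.88 ± 0.16). Gata3, which acts upstream of Zbtb7b, differed less, at 119 and 151 against 86.6 and 83.4 (0.72 ± 0.10, adjusted p = 0.00547). Myb was the member higher in MHCII-/- mice (-0.32 ± 0.07, adjusted p = 0.0255), and Satb1 (0.08) and Tcf7 (0.11) did not pass the test.

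Genes of the CD8 lineage were higher in MHCII-/- mice for 13 of 14 members, with a median of -1.72. Nkg7, a protein of cytotoxic granules, was 14.2 and 14.5 in MHCI-/- and 228 and 250 in MHCII-/- mice (-4.01 ± 0.09, adjusted p = 4.67e-06). Runx3 was 35.3 and 40.8 against 148 and 153 (-1.93 ± 0.08, adjusted p = 7.93e-05). Itgae, which encodes the integrin CD103, was 2.29 and 1.30 against 52.2 and 45.9 (-4.74 ± 0.20, adjusted p = 9.22e-05). For each of these genes the MHCI-/- mice were low, the MHCII-/- mice high and the wild-type mice between. Cst7, a protease inhibitor of cytotoxic cells, was 2.07 and 2.11 against 18.2 and 18.5 (-3.08 ± 0.12). The chemokine gene Ccl5 was the member that did not pass, at 20.4 and 20.8 against 10.3 and 16.9 (0.63, adjusted p = 0.0844). That result depended on MHCII-/- replicate 2, without which Ccl5 was 1.05, higher in MHCI-/- mice.

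**Figure D2:**
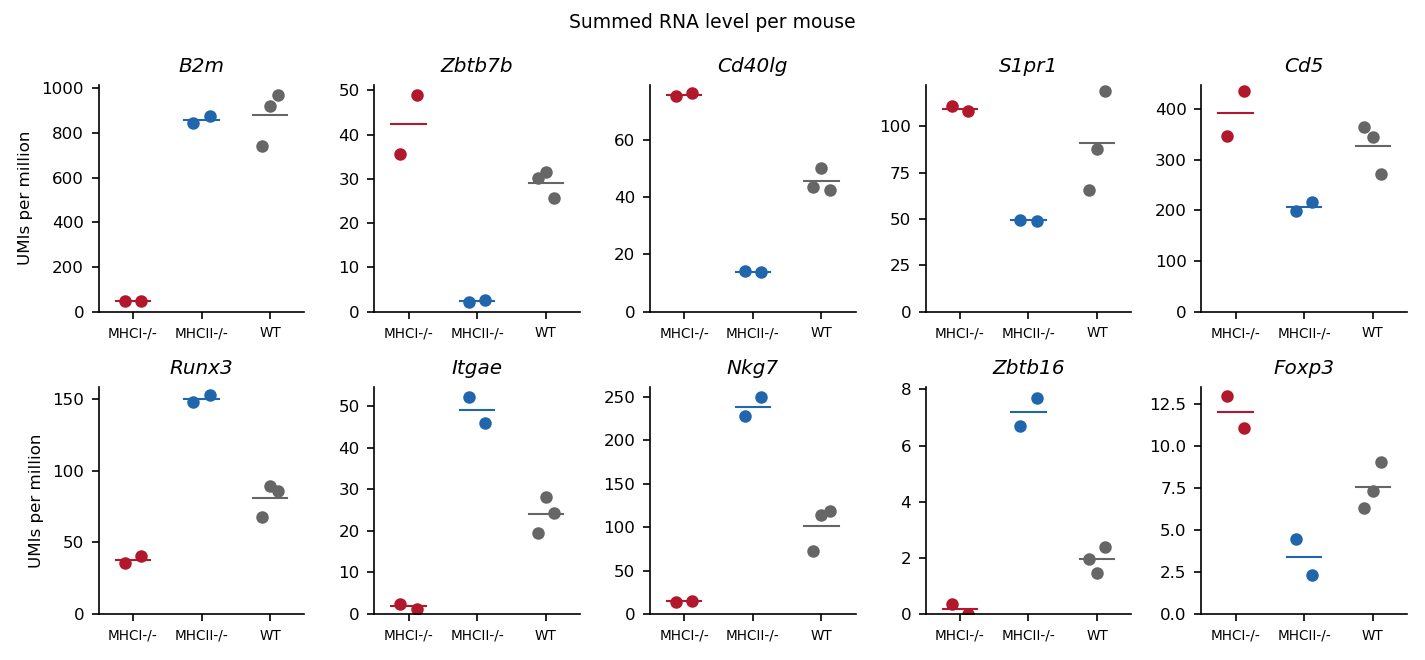
RNA of 10 genes in CPM, with 1 point per mouse and a line at the mean for MHCI-/-, MHCII-/- and sorted wild-type mice. Zbtb7b, Cd40lg, S1pr1, Cd5 and Foxp3 were higher in MHCI-/- mice, and B2m, Runx3, Itgae, Nkg7 and Zbtb16 were higher in MHCII-/- mice, with no overlap between these genotypes.

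Genes induced by TCR signals were higher in MHCI-/- mice where they passed the test, for 9 of 17 members, and the other 8 did not pass (median 0.57). Cd5, which dampens TCR signals and is set by their strength, was 348 and 437 in MHCI-/- and 199 and 216 in MHCII-/- mice (0.97 ± 0.10, adjusted p = 0.00226). Nr4a3, an immediate early transcription factor, was 15.7 and 17.8 against 8.04 and 9.03 (1.02 ± 0.11, adjusted p = 0.00249). Both genes were separate between genotypes, and wild-type Cd5 (272 to 364) overlapped the MHCI-/- range. Cd6, a relative of Cd5, was 206 and 243 against 141 and 140 (0.72 ± 0.08), and Junb, a subunit of AP-1, was 132 and 151 against 93.3 and 93.7 (0.64 ± 0.07). The members of highest level that did not pass were Nfkbia (0.17, adjusted p = 0.148) and Dusp2 (0.09, adjusted p = 0.697), and Egr1 was 0.28 (adjusted p = 0.109).

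Of 9 calcineurin and NFAT genes, which carry the calcium arm of the TCR signal, 2 were higher in MHCI-/- mice and 7 did not pass (median -0.01). Of all genes, 16.6% were called. Rcan3, a regulator of calcineurin, was 29.5 and 28.3 against 12.5 and 13.2 (1.22 ± 0.09, adjusted p = 0.00067). Nfatc2 was 14.0 and 17.3 against 11.4 and 12.3 (0.45, adjusted p = 0.0422), a call that was lost without MHCI-/- replicate 2 or either MHCII-/- mouse. It was also lost by DESeq2 (adjusted p = 0.116), with library size scaling (0.0721), with doublets removed (0.058) and with protein filters (0.073).

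Among genes associated with negative selection, 3 of 7 were higher in MHCI-/- mice and 1 in MHCII-/- mice (median 0.43). Tnfrsf4, which encodes the costimulatory receptor OX40, was 105 and 131 against 17.1 and 12.2 (3.08 ± 0.16, adjusted p = 0.000175), and Tnfrsf18, which encodes GITR, was 126 and 152 against 50.5 and 51.4 (1.49 ± 0.09). The OX40 antibody was lower in MHCI-/- mice within coreceptor populations, given as levels without a test. In CD4+CD8a- cells it was 2583 and 2610 antibody CPM against 3570 and 3370, beside 4787 to 15144 in wild-type mice. In CD4+CD8a+ cells it was 1614 and 1694 against 2188 and 2343, beside 2043 to 10770. Wild-type replicate 1 was the highest mouse in both. The GITR antibody was 8104 and 7744 against 5607 and 5267 in CD4+CD8a- cells, and 1263 and 1288 against 2201 and 2427 in CD4+CD8a+ cells. Gadd45b, a stress response gene, was 26.1 and 35.3 against 10.4 and 14.8 (1.32 ± 0.19). Pdcd1, which encodes the inhibitory receptor PD-1, moved the other way, at 28.8 and 35.2 against 48.1 and 59.9 (-0.71 ± 0.13, adjusted p = 0.0142), and its adjusted p was 0.0763 without MHCII-/- replicate 2. The transcription factor gene Ikzf2 and the death gene Bcl2l11 (0.43, adjusted p = 0.0719) did not pass.

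Regulatory T cell genes were higher in MHCI-/- mice for 8 of 10 members, and Capg and Icos did not pass (median 1.23). Foxp3, the transcription factor that defines regulatory T cells, was 13.0 and 11.1 against 4.49 and 2.33 (1.93 ± 0.28, adjusted p = 0.00621). Gpr83, a receptor found on these cells, was 30.6 and 32.0 against 7.96 and 8.57 (1.97 ± 0.09, adjusted p = 0.000113), and Izumo1r, the folate receptor FR4, was 148 and 159 against 71.3 and 74.6 (1.13 ± 0.07). Both MHCI-/- mice lay above both MHCII-/- mice for each, and wild-type Foxp3 was 6.31 to 9.03.

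Genes of preselection DP thymocytes were higher in MHCII-/- mice for 6 of 10 members, and the other 4 did not pass (median -0.60). Rag1, part of the enzyme that rearranges TCR genes, was 90.6 and 60.3 in MHCI-/- and 184 and 170 in MHCII-/- mice (-1.17 ± 0.18, adjusted p = 0.00862). Ccr9, a chemokine receptor of DP cells, was 476 and 489 against 653 and 714 (-0.45 ± 0.08), and its adjusted p was 0.12 without MHCII-/- replicate 2. In the cell cycle list, 2 of 10 genes passed, a share near the 16.6% of all genes called. They were the replication genes Mcm6 (82.5 and 64.8 against 135 and 128) and Mcm2 (51.4 and 48.6 against 73.9 and 71.2), both higher in MHCII-/- mice, and the list median was -0.52. The call of Mcm2 was lost without MHCII-/- replicate 1 or 2 (adjusted p = 0.0656 and 0.0597), and with sorted wild type in the fit neither Mcm6 (0.0805) nor Mcm2 (0.139) passed.

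Maturation and egress genes were higher in MHCI-/- mice for 10 of 12 members (median 0.49). S1pr1, the receptor that leads mature thymocytes out of the thymus, was 111 and 108 against 49.7 and 48.7 (1.21 ± 0.07, adjusted p = 0.000208). Ccr7, which draws selected cells to the medulla, was 257 and 292 against 141 and 146 (0.99 ± 0.07, adjusted p = 0.000638). Il7r was 144 and 164 against 90.4 and 92.3 (0.81 ± 0.07). The genotypes were separate for all 3. The integrin gene Itgb7 (0.12, adjusted p = 0.434) was among the members that did not pass.

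In the IL-7 and STAT5 list, 3 of 11 genes were higher in MHCI-/- mice and 1 in MHCII-/- mice (median 0.24). Il2rb, a receptor chain for IL-2 and IL-15, was 10.3 and 14.4 against at least 28.4 (-1.18 ± 0.14, adjusted p = 0.00291). Cish, a STAT5 target that inhibits cytokine signals, was 10.1 and 11.4 against 4.74 and 5.46 (1.12 ± 0.14, adjusted p = 0.00351). Il2rb and Cish thus differed in opposite directions, whereas the receptor chain Il7r, also in this list, was higher in MHCI-/- mice (0.81, adjusted p = 0.00115).

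Chemokine receptors divided between the genotypes, with 2 of 10 higher in MHCI-/- and 5 in MHCII-/- mice (median 0.02). Cxcr6 was 3.13 and 3.89 in MHCI-/- and 35.6 and 30.5 in MHCII-/- mice (-3.17 ± 0.13, adjusted p = 9.22e-05), with 9.64 to 13.9 in wild-type mice. Ccr8 was 7.72 and 8.15 against 2.46 and 1.97 (1.91 ± 0.17, adjusted p = 0.00118). Cxcr4, the receptor of cortical thymocytes, was 40.6 and 37.4 against 60.2 and 56.0 (-0.52, adjusted p = 0.00931). Of 8 integrin genes, Itgae was higher in MHCII-/- mice and Itga6 (0.45) and Itga4 (0.29) in MHCI-/- mice, and the latter 2 calls were lost without either MHCII-/- mouse, that of Itga4 also without MHCI-/- replicate 2 (adjusted p = 0.0688), by DESeq2 (0.064) and with library size scaling (0.0723).

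Of 9 innate-like NKT genes, 4 were higher in MHCII-/- mice and 5 did not pass (median -0.01). Zbtb16, which encodes PLZF, the factor of innate-like T cells, was 0.336 and 0 CPM in MHCI-/- and 6.69 and 7.71 in MHCII-/- mice (-5.45 ± 0.54, adjusted p = 0.00167). Klrb1c, which encodes NK1.1, was 0.112 and 0.144 against 6.05 and 3.59 (-5.10 ± 0.49, adjusted p = 0.00149). MHCI-/- mice held 0 to 6 UMIs of each gene, so these fold changes depend on few transcripts. Wild-type mice held 1.47 to 2.40 for Zbtb16, between the genotypes, and 1.20 to 3.69 for Klrb1c, which overlapped the MHCII-/- range. The members Tbx21 (-1.72, adjusted p = 0.0246) and Klra1 (-3.20, adjusted p = 0.0396) lost their calls without either MHCII-/- mouse, and Tbx21 also without MHCI-/- replicate 2. Klra1 also lost its call by DESeq2 (adjusted p = 0.564), with doublets removed (0.0502) and with protein filters (0.0774). Tbx21 lost it with protein filters as well (0.0633). Among gamma-delta T cell genes, 2 of 8 passed, both higher in MHCII-/- mice, beside 16.6% of all genes called. Among them was Maf (-0.97, adjusted p = 0.0300), whose call was lost without MHCI-/- replicate 2 or either MHCII-/- mouse. Trdc (-0.23, adjusted p = 0.328) did not pass, and the median was -0.43.

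Interferon response genes were higher in MHCI-/- mice for 8 of 11 members (median 0.93). Ifit1, which binds foreign RNA, was 112 and 84.9 against 45.4 and 50.6 (1.09 ± 0.15, adjusted p = 0.00516). Rsad2, which encodes viperin, was 16.2 and 10.5 against 3.77 and 4.88 (1.65 ± 0.25, adjusted p = 0.00700). Each gene was separate between MHCI-/- and MHCII-/- mice, with MHCI-/- replicate 1 above replicate 2 for Ifit1 and Rsad2. Irf7 was 92.8 and 78.0 against 42.5 and 50.1 (0.93 ± 0.12), and Isg15, at 215 and 142 against 111 and 139, did not pass (0.57, adjusted p = 0.104).

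Interferon-stimulated promoters carry a repeat of the letters TTTC that interferon-activated factors bind. It was searched as TTTCNNTTTC, or GAAANNGAAA on the other strand, in the RefSeq windows from 250 bases before to 50 bases after each gene's start (GRCm38.p6). Of 8 list genes with a window, 5 held it: Ifit1, Ifit3, Isg15, Rsad2 and Bst2. Among all genes with a window, 1079 of 27025 held it (3.99%), in 1131 of 32851 windows (3.44%). The stretches printed here are shown because Ifit1, Ifit3 and Rsad2 were higher together in MHCI-/- mice, and Isg15 and Bst2 for comparison. Capitals mark the repeat. Some windows hold more than 1 overlapping repeat, of which 1 is printed. A match is a description of the letters and not evidence of a bound site.
Ifit1, chr19:34640775-34640804, plus strand: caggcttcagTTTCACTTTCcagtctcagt
Ifit1, chr19:34640794-34640823, plus strand: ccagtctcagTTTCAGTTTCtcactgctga
Ifit3, chr19:34583363-34583392, plus strand: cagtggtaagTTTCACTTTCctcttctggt
Ifit3, chr19:34583397-34583426, plus strand: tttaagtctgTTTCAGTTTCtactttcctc
Rsad2, chr12:26456553-26456582, minus strand: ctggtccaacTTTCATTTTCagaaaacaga
Isg15, chr4:156200871-156200900, minus strand: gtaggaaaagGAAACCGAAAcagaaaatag
Bst2, chr8:71537577-71537606, minus strand: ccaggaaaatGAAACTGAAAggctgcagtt
The printed repeats ended 62 to 146 bases before the start. Of the 6 list genes with a window that were higher in MHCI-/- mice, 3 held the repeat (Ifit1, Ifit3 and Rsad2). Isg15 and Bst2 (0.54, adjusted p = 0.0772) held it and did not pass the test. These 2 results turned on MHCI-/- replicate 2, without which the log2 fold changes were 0.85 and 0.78.

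Genes of antigen presentation were examined because each genotype lacks a chain of one class. In the class I list, 6 of 10 were higher in MHCI-/- mice and B2m was the member higher in MHCII-/- mice (median 0.39). H2-K1, a class I heavy chain, was 1179 and 1295 against 802 and 849 (0.64 ± 0.08, adjusted p = 0.00328). H2-D1 was 1101 and 1169 against 797 and 815 (0.55 ± 0.07), with an adjusted p of 0.0549 and 0.0513 without MHCII-/- replicate 1 and 2. Tap1, a peptide transporter (0.49, adjusted p = 0.00565, and 0.0713 without MHCII-/- replicate 2), lay in the same region as H2-Ab1, as did H2-K1 and H2-D1. In the class II list, 3 of 6 tested genes were higher in MHCI-/- mice and H2-DMa, which helps load peptides, was higher in MHCII-/- mice (-0.41, adjusted p = 0.0162), a call lost without either MHCII-/- mouse (adjusted p = 0.0688 and 0.148), and the median was 0.77. The invariant chain Cd74 was 57.5 and 35.3 against 13.5 and 21.9 (1.42 ± 0.29, adjusted p = 0.0207) and H2-Eb1 was 10.1 and 5.37 against 0.677 and 1.67 (2.67 ± 0.44, adjusted p = 0.0103). With sorted wild type in the fit, Cd74 and H2-Eb1 did not pass (adjusted p = 0.0849 and 0.0611). H2-Aa, a class II alpha chain and the third gene called, was 10.1 and 4.08 against 0.720 and 2.20 (2.21 ± 0.55, adjusted p = 0.0390), and its call was lost by DESeq2 (adjusted p = 0.104), with doublets removed (0.0505), with sorted wild type in the fit (0.119) and without replicate 1 of MHCI-/- (0.117) or of MHCII-/- mice (0.086). Of the 4 MHC-deficient mice, MHCI-/- replicate 1 was the highest for Cd74, H2-Eb1 and H2-Aa, and in it the B cell gene Cd79a was also 12.9, against 0.815 in replicate 2 and 0.508 and 0.379 in the MHCII-/- mice. Over the 6 B cell markers, 3 were tested and 2 were higher in MHCII-/- mice, Cd79b (10.1 and 8.83 against 20.1 and 20.3) and Ighm (-0.53, adjusted p = 0.0212), and Ighm lost its call without either MHCII-/- mouse (adjusted p = 0.101 and 0.0595). The part of B cell transcripts in the class II values was not tested.

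The place of the called genes relative to the knocked-out genes was then examined. On chromosome 2 (GRCm38, GENCODE vM21), 33 of 101 tested genes within 5 Mb of B2m (122147686-122153083) were called (32.7%), against 9 of 69 at 5 to 10 Mb (13.0%) and 16.0% of 10521 genes on other chromosomes. On chromosome 17, 57 of 178 genes within 5 Mb of H2-Ab1 (34257689-34269419) were called (32.0%), and 31 of 128 at 5 to 10 Mb (24.2%). A second stretch at least 20 Mb from H2-Ab1, toward the start of chromosome 17, held 23 calls among 49 genes (46.9%). Near B2m, MHCII-/- levels were the nearer to wild type for 27 of 33 called genes (81.8%). Within 10 Mb of H2-Ab1, MHCI-/- levels were nearer for 72 of 88 (81.8%), and in the far stretch of chromosome 17 for 20 of 23 (87.0%). For called genes on other chromosomes, MHCI-/- levels were nearer for 1218 of 1680 (72.5%). The knocked-out gene and the strain alleles linked to it cannot be told apart in these groups. Differences of genes in these stretches, among them H2-K1, H2-D1 and Tap1, thus cannot be assigned to either.

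**Figure D3:**
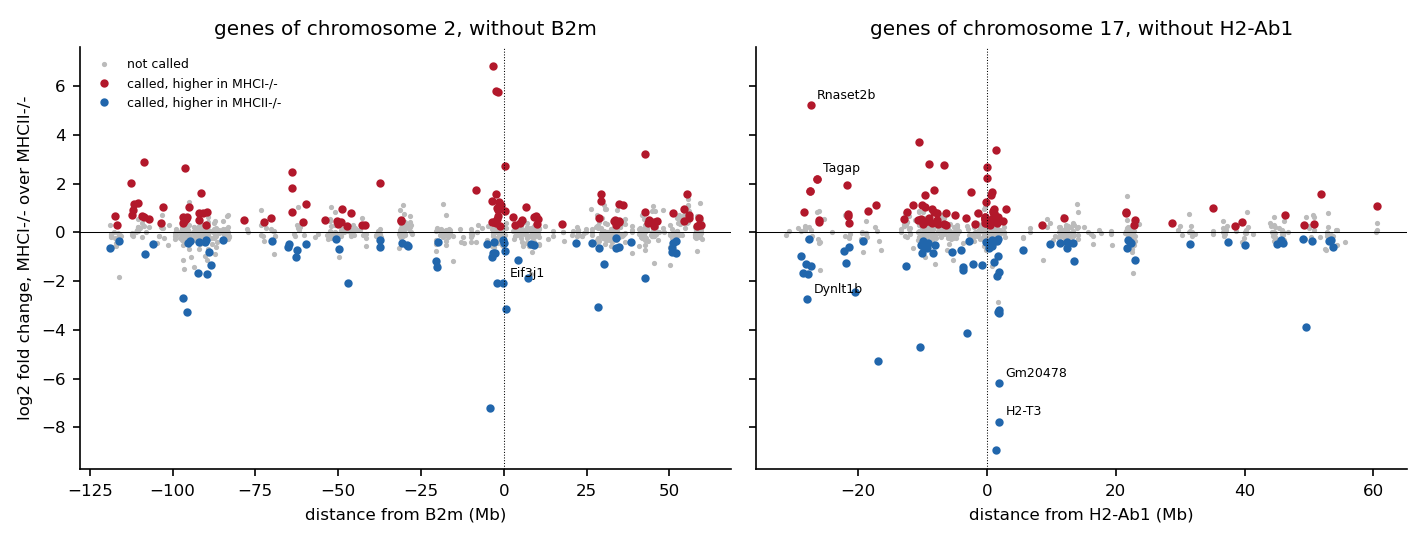
Log2 fold change of MHCI-/- over MHCII-/- against distance in Mb from B2m on chromosome 2 and from H2-Ab1 on chromosome 17. The knocked-out genes are left out and called genes are in color. Called genes were 32.7% within 5 Mb of B2m and 32.0% within 5 Mb of H2-Ab1, against 16.0% on other chromosomes.

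Outside the lists, the genes with the largest differences included several of these linked genes. Rnaset2b, a ribonuclease gene on chromosome 17 (6970634-7011299), was 127 and 109 in MHCI-/- and 3.47 and 3.14 in MHCII-/- mice (5.23 ± 0.13, adjusted p = 8.43e-06). H2-T3, a class I-like gene on chromosome 17 (36185572-36190287), was 0.447 and 0.0480 against 63.8 and 44.1 (-7.77 ± 0.41, adjusted p = 0.000181), a fold change that depends on 8 and 1 UMIs in the MHCI-/- mice. Wild-type mice had 99.6 to 115 for Rnaset2b and 0.196 to 0.847 for H2-T3, so the MHCII-/- mice were the ones apart from wild type for both. Rnaset2b has a near-identical copy, Rnaset2a, which was 132 and 121 against 184 and 139 (-0.29, adjusted p = 0.169), and the sum of the pair was 259 and 230 against 187 and 142, beside 197 to 228 in sorted wild type. Eif3j1 lies 0.12 Mb before B2m and was 32.7 and 25.5 against 128 and 126 (-2.07 ± 0.13), while its near-identical copy Eif3j2 on chromosome 18 was 48.5 and 43.2 against 5.38 and 4.68 (3.25 ± 0.12). Reads of such copies, Rnaset2a and Rnaset2b included, can be split by small sequence differences, and the sum of Eif3j1 and Eif3j2 was 81.2 and 68.7 against 133 and 131. Gm15417 (4.44 ± 0.23) overlaps Zbtb7b on the opposite strand of chromosome 3, and Gm20478 (-6.20) and Dynlt1b (-2.75) are on chromosome 17 with H2-T3, as is Tagap (2.20).

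Other genes lay on other chromosomes or over 20 Mb from both knocked-out genes. Among them Ly6a, which encodes Sca-1, was 91.5 and 62.1 in MHCI-/- and 13.6 and 20.9 in MHCII-/- mice (2.19 ± 0.25, adjusted p = 0.00282). Igfbp4, a binding protein of insulin-like growth factors, was 274 and 347 against 89.5 and 82.6 (1.90 ± 0.10, adjusted p = 0.000202). The interferon-induced GTPase Iigp1 was 35.3 and 27.0 against 7.11 and 8.09 (2.08 ± 0.16). All 3 were separate between genotypes, as were Lmna (24.4 and 24.7 against 5.84 and 5.99) and Chl1 (23.8 and 28.1 against 8.26 and 7.71). Higher in MHCII-/- mice were Plac8 (19.0 and 11.5 against 73.0 and 89.3, -2.37 ± 0.22), Ly6c2 (7.66 and 2.97 against 26.7 and 31.3, -2.42 ± 0.34) and Cd160, a receptor of cytotoxic cells (7.61 and 11.2 against 39.4 and 37.9, -1.98 ± 0.15). S100a6 had a log2 fold change of -1.91 ± 0.10 with the mice separate, and Eng, which encodes endoglin, was 5.03 and 6.91 against 19.3 and 21.5.

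TCR variable segments were counted as genes in the same test. Of 61 Trav segments tested of 128 listed, 6 were higher in MHCI-/- mice (9.84%, against 9.34% of all genes) and 1 in MHCII-/- mice, with a median of 0.40. At an unadjusted p under 0.05 there were 21, and DESeq2 called 4. Of 20 Trbv segments tested of 35 listed, 0 passed the edgeR test, with a median of -0.10 and a range of -0.78 to 0.77. Of the Trbv segments 3 had an unadjusted p under 0.05, and DESeq2 called 0. Tags at the 3′ end of a transcript rarely reach the variable segment, so these counts are limited in depth.

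Genotypes were next compared within each stage, to ask when in selection the differences were present. Of the genes tested, 350 of 10124 differed in CD69loCD127lo cells (3.46%), 942 of 9774 in CD69+CD127lo cells (9.64%), 2207 of 10611 in CD69+CD127+ cells (20.8%) and 493 of 10495 in CD69-CD127+ cells (4.70%). Leaving out 1 mouse moved these counts. The first was 1143 without MHCI-/- replicate 1 and 611 without MHCI-/- replicate 2, and the second was 552 without MHCII-/- replicate 2. The third was 1471 and 1185 without MHCII-/- replicate 1 and 2, and the last was 1473 without MHCI-/- replicate 1 and 243 and 212 without MHCII-/- replicate 1 and 2. CD69+CD127+ cells had the most calls whichever mouse was left out, and the order of the other stages depended on single mice. The spread between mice also differed, with a fitted biological coefficient of variation of 0.1064, 0.0667, 0.0584 and 0.1034 from first to last stage. The counts thus reflect power to call as well as the size of differences. Of 9544 genes tested in all 4 stages, 97 were higher in MHCI-/- mice in each, among them Zbtb7b, Cd40lg, Tnfrsf4, S1pr1, Ifit1 and Ly6a, and 31 were higher in MHCII-/- mice in each, among them Runx3, Itgae, Nkg7, Cd8a and B2m.

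In CD69loCD127lo cells, where most cells of both genotypes were CD4+CD8a+, 256 genes (2.53%) were higher in MHCI-/- and 94 (0.928%) in MHCII-/- mice. Regulatory T cell genes stood apart most, 9 of 10 higher in MHCI-/- mice with a median of 2.96 against 0.01 over all genes. Foxp3 was 18.4 and 23.0 CPM in MHCI-/- mice and 0 and 0.470 in MHCII-/- mice, and 3 UMIs in the latter correspond to 0.625 and 0.470. Ctla4, an inhibitory receptor of regulatory T cells, was 23.5 and 20.3 against 1.46 and 1.10 (4.19 ± 0.31, adjusted p = 0.000234), and Tnfrsf4 was 65.0 and 107 against 2.71 and 2.20. Both mice of a genotype lay on the same side for each. The CD4 lineage had 5 of 12 members higher in MHCI-/- mice and the CD8 lineage 7 of 13 higher in MHCII-/- mice, while egress (9 of 12) and interferon genes (7 of 11) were higher in MHCI-/- mice. CD4+CD8a- cells were 29.8% and 33.2% of this stage in MHCI-/- mice and 0.601% and 0.566% in MHCII-/- mice, and their part in these differences was not tested.

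In CD69+CD127lo cells, the earlier of the stages with CD69, 568 genes (5.81%) were higher in MHCI-/- and 374 (3.83%) in MHCII-/- mice. CD4+CD8a- cells were 43.9% and 43.5% of this stage in MHCI-/- mice and 1.91% and 2.40% in MHCII-/- mice. Their part in the differences at this stage was not tested. The signal genes went both ways, with 8 of 17 higher in MHCI-/- and 2 in MHCII-/- mice. Nr4a3 was 48.2 and 43.0 against at most 23.9 (1.37), whereas Egr1, an immediate early factor, was 117 and 148 against 201 and 175 (-0.41 ± 0.10, adjusted p = 0.0125), and its corepressor Nab2 was lower by a like margin (-0.30, adjusted p = 0.0449). Cd5 differed least here (0.35, adjusted p = 0.0139). Zbtb7b was 26.0 and 41.0 against 2.81 and 0.813 (4.60 ± 0.34, adjusted p = 4.21e-09) and Tnfrsf4 182 and 204 against 13.0 and 18.2 (3.62). Pdcd1 was 55.0 and 74.3 against 139 and 164 (-1.14 ± 0.12, adjusted p = 8.08e-07), and Bcl2l11, which encodes the death protein BIM, was 140 and 174 against 121 and 120 (0.46, adjusted p = 0.00404). The protease gene Gzma, at 13.0 and 7.43 against 106 and 15.3 (-2.40 ± 0.61), rested on MHCII-/- replicate 1, without which it was -0.61 (adjusted p = 0.307).

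In CD69+CD127+ cells, 1154 genes (10.9%) were higher in MHCI-/- and 1053 (9.92%) in MHCII-/- mice, and the lineage lists were farthest apart. The CD8 lineage had 12 of 14 members higher in MHCII-/- mice (median -2.56), and the CD4 lineage 7 of 12 higher in MHCI-/- mice (median 0.80). Zbtb7b was 57.7 and 67.0 against 1.59 and 2.05 (5.07 ± 0.17, adjusted p = 7.43e-19), and Nkg7 was 9.49 and 3.40 against 240 and 254 (-5.34 ± 0.17, adjusted p = 9.53e-20). Cd8a was 61.3 and 47.3 against 761 and 792 (-3.82 ± 0.11) and Cd8b1 103 and 77.5 against 811 and 843. Akr1c18, a steroid-metabolizing enzyme, was 16.6 and 25.6 in MHCI-/- mice and 0 and 0.164 in MHCII-/- mice, and wild-type mice held 2.05 to 23.7. Of 10 cell cycle genes, 5 were higher in MHCI-/- mice here and 2 in MHCII-/- mice, Mki67 among the former (74.7 and 51.0 against 38.7 and 46.9, 0.54, adjusted p = 0.00332). Cd5 was higher in MHCI-/- mice (1.21, adjusted p = 6.1e-12), and Myc, a growth regulator, was lower (-0.43, adjusted p = 0.00395).

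In CD69-CD127+ cells, 259 genes (2.47%) were higher in MHCI-/- and 234 (2.23%) in MHCII-/- mice. Zbtb7b was 31.1 and 45.3 against 3.20 and 4.96 (3.22 ± 0.27, adjusted p = 0.00297) and St8sia6 17.1 and 25.4 against 2.67 and 3.83. The CD8 lineage had 10 of 14 members higher in MHCII-/- mice (median -1.74), and 4 of 9 innate-like NKT genes were too (median -1.24). In CD69+CD127lo cells 3 of 5 tested NKT genes were higher in MHCI-/- and 0 in MHCII-/- mice (median 0.63), in CD69+CD127+ cells 2 of 9 were higher in MHCI-/- and 4 in MHCII-/- mice (median -0.53), and in CD69loCD127lo cells 1 of 5 was higher in MHCI-/- mice (median 0.08). The list genes higher in MHCI-/- mice in CD69+CD127lo cells included Id2 (0.67). Over all cells the MHCI-/- mice held 6 and 0 UMIs of Zbtb16 and 2 and 3 of Klrb1c. The genes tested were not the same number at each stage, and whether the list differs between stages was not tested. In CD69+CD127+ cells its summed level was 365 and 420 CPM in MHCI-/- and 326 and 309 in MHCII-/- mice, opposite in direction to its median. Klra9, a receptor of the Ly49 family, was 0 in both MHCI-/- mice and 31.6 and 15.7 in MHCII-/- mice, where 3 UMIs per MHCI-/- mouse would be 0.803 and 0.669. Klra1 of the same family was 0.535 and 0 against 36.7 and 20.4, and counts of these near-identical genes can be split by sequence. Adgrg5, an adhesion receptor of cytotoxic cells, was 0.803 and 0 against 22.4 and 24.1. Interferon genes were higher in MHCI-/- mice for 5 of 11.

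**Figure D4:**
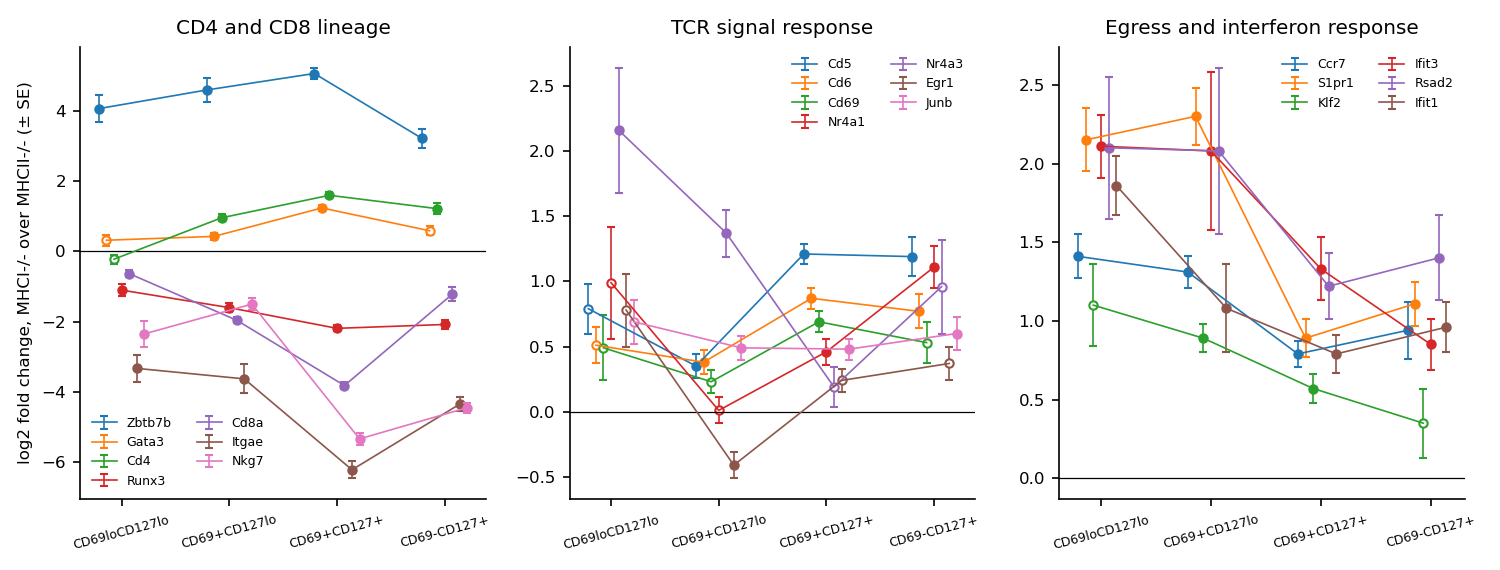
Log2 fold change of MHCI-/- over MHCII-/- with its SE in the 4 stages, for lineage genes (left), TCR signal genes (middle) and egress and interferon genes (right), where filled points passed and open points did not pass an adjusted p of 0.05. Runx3 ran from -1.10 to -2.19, and Egr1 was -0.41 in CD69+CD127lo cells while Nr4a3 was 1.37 there.

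Several genes kept their direction at every stage but not their size. Runx3 was -1.10, -1.60, -2.19 and -2.08 from the CD69loCD127lo to the CD69-CD127+ stage. S1pr1 was 2.15, 2.30, 0.89 and 1.11, with the smaller values at the 2 stages with CD127. Foxp3 was 6.22, 2.88, 1.50 and 1.20, the first of them fitted against 0 and 3 UMIs in the MHCII-/- mice, and the last did not pass (adjusted p = 0.0534). Whether these values differ between stages was not tested.

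Values within a coreceptor population do not depend on the shares of the populations, and are given without tests. They can still depend on the mix of stages in the population, which differed between genotypes. Of CD4+CD8a+ cells, 289 of 1321 and 289 of 1283 were CD69+CD127+ in MHCI-/- mice. In MHCII-/- mice 678 of 2338 and 1093 of 3451 were, and the part of stages in these values was not tested. Within CD4+CD8a+ cells, Zbtb7b was 11.2 and 21.3 CPM in MHCI-/- and 1.14 and 0.972 in MHCII-/- mice, and Cd40lg was 50.5 and 57.2 against 15.2 and 15.2. Runx3 was 19.3 and 29.6 against 80.1 and 107, and Cd5 was 360 and 567 against 247 and 284. The lineage regulators and Cd5 were thus separate between genotypes within this population as well. The interferon list was not: it summed to 370 and 236 against 302 and 398. The maturation and egress list summed to 924 and 1191 against 1159 and 1356, and the genotypes overlapped. In it S1pr1 was 4.92 and 6.13 against 5.46 and 7.26, and Ccr7 was 51.0 and 57.2 against 69.6 and 85.4. Among single-positive cells, the interferon list summed to 1400 and 1088 in MHCI-/- CD4+CD8a- cells and to 897 and 954 in MHCII-/- CD4-CD8a+ cells.

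Each genotype also held a few cells in the gate of single-positive cells that its missing class would select, as set by the pooled thresholds. CD8a was divided at 80.8 per 10000 antibody UMIs, beside 277 and 285 for thresholds set in the MHCII-/- lanes. CD4 was divided at 149, beside 557 and 641 in the MHCI-/- lanes. CD8a antibody CPM in CD4+CD8a- cells was 3954 and 4188 in MHCII-/- and 1482 and 1467 in MHCI-/- mice. The part of cells between these thresholds in the values below was not tested. The 115 and 194 CD4+CD8a- cells of MHCII-/- mice had 80.9 and 104 CPM of Zbtb16, against 0.123 and 0 in the CD4+CD8a- cells of MHCI-/- mice and 1.65 to 3.45 in those of wild-type mice. In the same order, MHCII-/- against MHCI-/- mice, Klrb1c was 60.9 and 34.1 against 0.246 and 0, and Cxcr6 was 133 and 161 against 5.30 and 4.94. The innate-like NKT list summed to 1328 and 1121 against 286 and 296, and the gamma-delta list to 264 and 335 against 34.0 and 39.9. Zbtb7b was lower than in MHCI-/- cells, at 24.0 and 27.4 against 54.6 and 63.0, while Cd40lg was 83.9 and 59.6 against 89.6 and 89.7. S1pr1 was 39.0 and 49.0 against 174 and 164, Ccr7 92.9 and 96.6 against 394 and 418, and Nkg7 242 and 178 against 20.2 and 13.3. The maturation and egress list summed to 2683 and 2414 against 4459 and 4658, and the CD8 lineage list to 1160 and 867 against 375 and 360. The list of egress genes was thus lower, and the innate-like NKT, gamma-delta and CD8 lineage lists higher, than in CD4+CD8a- cells of MHCI-/- mice.

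The 29 and 18 CD4-CD8a+ cells of MHCI-/- mice were unlike those of MHCII-/- mice. In the order MHCI-/- against MHCII-/- mice, their cell cycle genes summed to 3786 and 3082 against 1123 and 1039, and their preselection genes to 1589 and 1313 against 409 and 384. Runx3 was 12.2 and 26.0 against 262 and 239, Nkg7 was 7.32 and 42.3 against 535 and 568, and egress genes summed to 432 and 523 against 4066 and 4146. They were thus high in cycling and preselection genes and low in genes of CD8 lineage maturation, in under 50 cells.

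Surface proteins were compared with the same test on summed antibody counts. Of 111 antibodies, 46 (41.4%) differed, 23 (20.7%) in each direction, and scaling by library size gave 15 higher in MHCI-/- and 25 in MHCII-/- mice. Without MHCII-/- replicate 1, and likewise without replicate 2, 30 differed. CD5 was 210554 and 223357 antibody CPM in MHCI-/- and 116959 and 125104 in MHCII-/- mice (0.94 ± 0.17, adjusted p = 0.00126), and the TCR beta chain was 11457 and 10133 against 6193 and 6579 (0.85 ± 0.10, adjusted p = 7.98e-05). Cells of every sorted mouse were selected on these 2 proteins, through probes bound to the tags of the same antibodies, so their levels are those of cells that passed that sort. Sca-1, the product of Ly6a, was 15312 and 13520 against 3951 and 4015 (1.94 ± 0.10, adjusted p = 2.34e-07), and CD69 was 6223 and 6845 against 4071 and 4589 (0.70 ± 0.13). All of these were separate between genotypes, as was CD86, a costimulatory ligand (2833 and 3392 against 1930 and 1955). CD127 (0.30, adjusted p = 0.0312) passed narrowly and lost its call without either MHCII-/- mouse. CD24 (0.04) and CD4 (86356 and 94852 against 76852 and 80217, 0.31, adjusted p = 0.142) did not pass. CD4 gained a call by DESeq2 (0.30, adjusted p = 0.048), and was 0.38 without MHCI-/- replicate 1.

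Proteins higher in MHCII-/- mice included coreceptors and integrins, and the signal of the NK-1.1 antibody. NK-1.1 was 274 and 207 in MHCI-/- and 1595 and 1688 in MHCII-/- mice (-2.69 ± 0.10, adjusted p = 1.39e-08), below 2304 to 5826 in wild-type mice. Integrin beta 7, the partner of CD103, was 3201 and 3213 against 16572 and 14475 (-2.18 ± 0.13, adjusted p = 5.39e-07), while the RNA of its gene Itgb7 did not pass the test. CD103 was 3413 and 3292 against 7973 and 7567 (-1.12 ± 0.11), CD8a 28145 and 23087 against 68807 and 66350 (-1.32 ± 0.13) and CD8b 56365 and 47172 against 119431 and 108367 (-1.05 ± 0.14). The genotypes were far apart for all of these. Antibodies to FceRIa and CD140a, proteins not typical of thymocytes, were also higher, FceRIa, an IgE receptor, at 429 and 387 against 1793 and 1759 (-2.03 ± 0.09) and CD140a, a growth factor receptor, at 2218 and 1681 against 6220 and 5861 (-1.55 ± 0.11). In CD4+CD8a+ cells NK-1.1 was 269 and 218 in MHCI-/- and 815 and 908 in MHCII-/- mice, beside 878 and 851 in wild-type replicates 2 and 3. FceRIa was 404 and 384 against 1071 and 1094 there, beside 928 and 1062, and CD140a 1829 and 1811 against 3697 and 3611, beside 3669 and 3524. For these 3 antibodies the MHCI-/- mice were thus the ones apart from those wild-type mice in this population, and wild-type replicate 1 was higher than every other mouse (4748 for NK-1.1).

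Within stages, 34 of 109 antibodies differed in CD69loCD127lo (31.2%), 48 in CD69+CD127lo (44.0%), 49 in CD69+CD127+ (45.0%) and 48 in CD69-CD127+ cells (44.0%). CD5 protein was higher in MHCI-/- mice at each stage, by 1.06, 0.47, 1.02 and 1.29 on the log2 scale. The TCR beta chain was too, by 0.60, 0.67, 0.80 and 1.12. Both values were largest in CD69-CD127+ cells, and the difference between stages was not tested. CD4 protein did not pass at the first 2 stages (-0.34 and 0.06) and was higher in MHCI-/- mice at the last 2 (0.58, adjusted p = 5.77e-06, and 0.96, adjusted p = 0.000502). CD8a was lower in MHCI-/- mice throughout (-0.54, -0.98, -2.41 and -1.44), as were CD103 (-0.44, -0.42, -1.06 and -1.83) and integrin beta 7 (-0.72, -0.92, -2.44 and -2.40). Within CD4+CD8a+ cells, CD5 protein was 159811 and 183459 in MHCI-/- and 124518 and 132449 in MHCII-/- mice. The TCR beta chain went the other way there, at 4166 and 3854 against 5616 and 6236. CD4 protein did too (72473 and 78996 against 105369 and 108365), and CD69 overlapped (4013 and 4606 against 4207 and 4783). In CD4+CD8a- cells the TCR beta chain was 16527 and 14068 against 5512 and 6013. The part of coreceptor shares in the stage values was not tested.

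**Figure D5:**
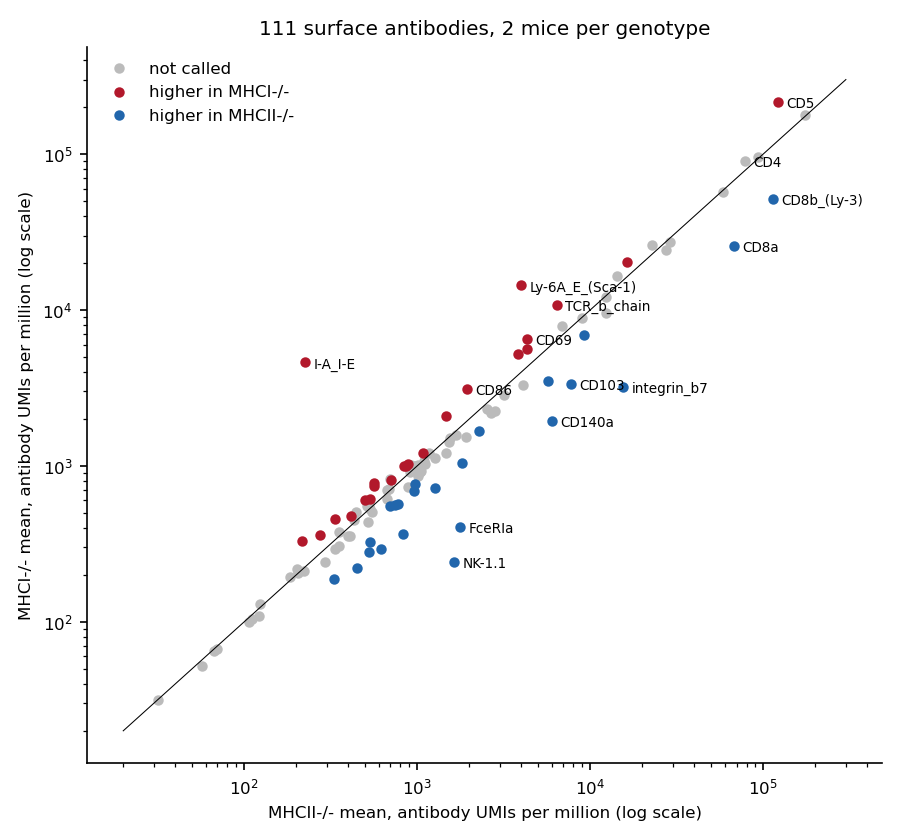
Mean antibody level (antibody CPM) in MHCI-/- mice (vertical axis, log scale) against MHCII-/- mice (horizontal axis, log scale), with 1 point for each of 111 antibodies and a diagonal of equal levels. I-A and I-E, Sca-1 and CD5 lay above the diagonal, and NK-1.1, integrin beta 7 and CD8a lay below it.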

How the data were processed

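RNA and 111 antibodies were counted in CD5+TCRB+ thymocytes of 2 MHCI-/- and 2 MHCII-/- mice. The deposited matrices hold UMI counts per gene or antibody and barcode, which the authors made per lane with Cell Ranger 3.1.0 against mm10 (GRCm38), per the labels; the file headers name software version 3.0.2. Cells with at most 15% mitochondrial UMIs and at least 200 genes were kept, and counts were summed per mouse. The 4 mice gave 17880140 to 39535917 RNA UMIs, and barcodes shared between lanes were at most 0.332%. Replicate mice differed beyond sampling noise (chi-square per degree of freedom 14.62 and 9.791).

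The tested groups were fitted with edgeR 4.0.16 (R 4.3.3, limma 3.58.1) by filterByExpr, trimmed mean of M values scaling and the quasi-likelihood test. The p-values were adjusted by Benjamini-Hochberg over all genes or antibodies and called under 0.05, and the SE was the log2 fold change divided by the root of F. The fit was also run on simulated counts with a single fixed dispersion. The outcome is not given here and no result rests on it. For gating, cells with 1000 to 10000 antibody UMIs and at least 70 antibodies were kept, those marked by a doublet score removed, and CD4, CD8a, CD69 and CD127 divided at 149, 80.8, 26.6 and 3.42 per 10000 antibody UMIs, in thresholds pooled over 7 sorted mice. A sort into CD69 and CD127 stages chooses on those 2 proteins, which were not compared within it. With 2 mice a group, shares were compared by exact permutation. Alternatives were DESeq2 1.42.0, library size scaling, no low-count filter, joint fitting with wild type, doublet, protein filter and threshold choices, a replicate block and leaving out each mouse. Promoter windows were RefSeq (GRCm38.p6), and gene positions GENCODE vM21.

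The gene lists and members were chosen with earlier results of these data known. Named genes were up to 4 called members of lowest adjusted p and up to 2 uncalled members of highest level per list, the 10 largest changes outside the lists in each direction (5 per stage) with at least 20 CPM and no overlap, and a few others chosen after their values were seen. TCR segments and mitochondrial genes were left out of the latter rule. Some items are not reported here.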

Additional observations from a re-analysis of the deposited data

Results flagged for a closer look

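A pair of list genes were called in opposite directions in different stages, with both mice of a genotype on the same side each time. The gamma chain constant gene Tcrg-C2 was higher in MHCI-/- mice in CD69loCD127lo cells (log2 fold change 1.35) and higher in MHCII-/- mice in CD69+CD127+ cells (-1.94). Id2, an inhibitor of E proteins, was higher in MHCI-/- mice in CD69+CD127lo (0.67) and CD69+CD127+ cells (0.54) and higher in MHCII-/- mice in CD69-CD127+ cells (-1.24), where it was 58.9 and 67.4 against 157 and 148 CPM. The difference between stages was not tested for either gene. They are among 17 genes called in opposite directions in a pair of stages, whether or not they were tested in all 4. For scale, 9544 genes were tested in all 4 stages.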

How the results depend on the processing

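Of the named values, 1192 of those from summed RNA, 127 of those from antibodies and all from stages other than CD69+CD127lo kept their direction and their side of the threshold under the alternatives run. In summed RNA 47 values gained the call, 69 lost it and 1 reversed, and of the antibodies 2 gained and 7 lost it. The count of called genes in summed RNA, 2012, was 3416 without the low-count filter, 827 with sorted wild type in the fit, 3616 with a replicate block, 1528 by DESeq2 and 601 to 2183 without 1 mouse. Called antibodies ranged from 30 to 68 without 1 mouse. In CD69loCD127lo cells the count was 168 with thinned antibodies, an alternative chosen after seeing the data, 848 with a replicate block and 278 to 1143 without 1 mouse. It was 1484 with thinned antibodies and 552 to 983 without 1 mouse in CD69+CD127lo cells, 1185 to 2386 without 1 mouse in CD69+CD127+ cells, and 1211 with a replicate block and 212 to 1473 without 1 mouse in CD69-CD127+ cells. Gzma in CD69+CD127lo cells lost its call under 4 alternatives (-1.20 and -1.09 with lowered and per-lane thresholds, -2.33 with thinning, -0.61 without 1 mouse). With sorted wild type in the fit, the calls lost included those of Nfatc2, Pdcd1, Ccr9, Klra1, Maf, Itga4, H2-DMa, Ighm and Dynlt1b. The cause was not tested. Replicate numbers share no litter or batch label. Deviations of same-numbered mice correlated at 0.216 over 12176 genes, from 2 pairs, so the block result is given here only.

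Thresholds per lane changed the differences in share (percentage points) to 37.9 for CD4+CD8a-, -7.08 for CD4-CD8a+, 0.507 for CD4-CD8a- (reversed), -0.606 for CD69loCD127lo, -2.13 for CD69+CD127lo (reversed), 0.868 for CD69+CD127+ and 1.87 for CD69-CD127+ (reversed). Thresholds raised by 0.25 (natural log) gave -22.8 for CD4-CD8a+ and -1.56 for CD4-CD8a-, and thresholds lowered by it gave -21.2, -0.767 and, for CD69+CD127+, 3.16. Without 1 mouse the differences ran from -32.7 to -30.5 for CD4+CD8a+, 53.5 to 56.1 for CD4+CD8a-, -22.4 to -21.6 for CD4-CD8a+, -1.43 to -1.0 for CD4-CD8a-, -5.62 to -2.39 for CD69loCD127lo, 3.75 to 6.23 for CD69+CD127+ and -3.03 to -0.25 for CD69-CD127+. For CD69+CD127lo they ran from -1.27 to 2.58, reversed at -1.27 without MHCI-/- replicate 2 and -1.10 without MHCII-/- replicate 1. H2-Ab1 was -1.30 without MHCI-/- replicate 1 and reversed to 0.58 without MHCI-/- replicate 2. The CD127 threshold lies near 1 antibody UMI in shallow cells, which limits the CD127lo gates.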

Other observations

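A few chaperone genes were picked after their values were seen, and their values say nothing of chaperone genes as a group. Hspa8, a chaperone of the HSP70 family, was 927 and 999 CPM in MHCI-/- and 1574 and 2116 in MHCII-/- mice (log2 fold change -0.89 ± 0.14, edgeR adjusted p = 0.00859), and Dnaja1, its cochaperone, was 379 and 410 against 667 and 781 (-0.82 ± 0.09, adjusted p = 0.00284). Hsph1 was 13.4 and 13.6 against 31.2 and 51.3 (-1.57 ± 0.23). Hspe1 did not pass (-0.30, adjusted p = 0.0970). Hspa8 and Dnaja1 were called in the same direction in all 4 stages. Wild-type Hspa8 was 969 to 1295, below both MHCII-/- mice.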
